A study of Mus musculus with 12 samples.

Results

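The genes of the proteasome were followed in mouse liver, wild type (WT) or lacking Mettl5 (KO), by ribosome profiling with matched input RNA. Members were all genes whose symbol begins with Psma, Psmb, Psmc, Psmd or Psme and a digit in the deposited table of input and ribosome-protected fragments (RPF), 41 of its 10607 genes. They comprised 17 genes of the core (7 Psma, 10 Psmb), 20 of the regulatory particle (6 Psmc, 14 Psmd) and 4 of the activators (Psme). By role, the 14 constitutive core subunits, 3 immunoproteasome subunits, 9 base subunits, 8 lid subunits, 3 chaperones of base assembly and 4 activators make up the 41. All 41 passed the filter on low values. Psmc3ip, which is no subunit, the testis subunit Psma8, the thymus subunit Psmb11, Psme2b and 4 pseudogenes carry a matching symbol in the input count file, with 0 to 4 counts per library, and are not in the table.

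The proteasome degrades proteins marked with ubiquitin. Its core is a barrel of stacked alpha and beta rings, and Psmb5, Psmb6 and Psmb7 carry the cutting sites on the inner face. The base of the regulatory particle unfolds substrates with a ring of ATPases, and the lid removes ubiquitin before they enter the barrel. Immune signals replace the cutting subunits by Psmb8, Psmb9 and Psmb10, and other activators can take the place of the regulatory particle at the ends of the barrel. Every constitutive core subunit is built into the barrel in equal numbers.

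Livers came from 3 WT and 3 KO littermates, and each KO mouse was taken as the littermate of the WT mouse with its number. Each liver gave an input library and an RPF library, 12 libraries in 4 groups of 3. The allele carries loxP sites around exon 2 of Mettl5, made in ES cells of the F1 hybrid C57bl/6 x 129S6, and the line was backcrossed to B6. KO mice carried the deletion in the whole body through B6.C-Tg(CMV-cre)1Cgn/J breeders, in which the CMV promoter drives Cre, and WT mice were littermates with intact Mettl5, and sex and age were not used here. All livers were frozen and lysed in cycloheximide, which holds ribosomes on their transcripts. METTL5 methylates 18S rRNA, and the study asked whether its loss changes translation.

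Over the genes of the table, input libraries held 2398804 to 5121304 reads and RPF libraries 4623826 to 9184242. A proteasome gene had a median of 115 to 293 reads in the input libraries and 414 to 898 in the RPF libraries, with a lowest value of 12 reads. Mettl5 itself had 67, 56 and 103 RPF reads in the WT mice and 12, 9 and 10 in the KO mice (limma adjusted p = 0.00504). The 8 hepatocyte markers were all present and 0 of 8 passed the test in any comparison. The summed level of 5 stellate cell and fibroblast markers was 1820 to 1973 normalized RPF reads in WT and 2635 to 2825 in KO, and 793 to 937 against 1089 to 1142 in input. Its part in the results was not tested. In bulk liver, fewer cells of a type and less RNA per cell cannot be told apart.

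A footprint of a proteasome gene could be counted only where its sequence occurs at a single place, because the authors kept RPF reads with 1 location. The coding sequence (CDS) of each member was therefore searched against the mm10 chromosomes in windows of 30 bases, about the length of a footprint. A window was called shared where it also occurs, without a difference, at another place in these chromosomes, inside the gene or outside it. The median share of such windows over all genes was 0%, and 7.63% of genes had over 30%, as did 10 of the 41 members. The most affected were Psma5 (89.5%), Psma3 (89.3%), Psme2 (81.5%), Psmb3 (81.1%) and Psmb5 (76.3%). The stretches shown here stand for 3 of these genes, each with a copy elsewhere in the genome. The copy is the place that shared the most windows, with 1 chromosome left out of the choice. Gene and copy are both read 5′ to 3′ on the coding strand. Capitals mark bases at which gene and copy differ. Each stretch is the first 30-base step of the CDS that lies in 1 exon and aligns to the copy without a gap.
Psma5, chr3:108261687-108261716, plus strand: ggtgtgaatactttttctcctgaaggaaga
Psma5 copy, chr4:135716542-135716571, minus strand: ggtgtgaatactttttctcctgaaggaaga
Psma3, chr12:70983335-70983364, plus strand: agatgtaaagatggtgttgtgtttggggta
Psma3 copy, chr6:31142597-31142626, minus strand: agatgtaaagatggtgttgtgtttggggta
Psmb5, chr14:54617962-54617991, minus strand: atggcGctggctagcgtgttgcagcggccg
Psmb5 copy, chr7:3181093-3181122, plus strand: atggcActggctagcgtgttgcagcggccg

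A footprint from the Psma5 or Psma3 stretch fits both places equally well, and one from the Psmb5 stretch differs at a single base. In a local alignment to the CDS, the Psma5 copy (annotated as Gm12989) matched 99.0% of 723 aligned bases, out of a CDS of 726. The Psma3 copy (Gm13835) matched 100% of 665 aligned bases, out of a CDS of 768. The Psmb5 copy (Gm3375) matched 99.0% of 795, its full CDS. Gaps, 2 in Psma5 and 1 in Psmb5, are not counted in these percentages. Psme2 matched Psme2b on chromosome 11 over 720 bases with 5 differences. The mapping allowed mismatches, so windows that differ from a copy by few bases may be affected too, and how many footprints of each gene were lost in this way was not tested.

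In WT liver, the constitutive core subunits with under 30% of shared windows had RPF levels close to one another. Levels between genes are given as normalized RPF reads per kb of the longest CDS (mean ± SD, n = 3). Psmb2, a beta subunit, was highest at 1349 ± 246 and the alpha subunit Psma1 next at 1316 ± 58.8. The alpha subunit Psma6 had 1125 ± 169 and Psmb1, a beta subunit, had 725 ± 72.8. The 8 core subunits with under 30% of shared windows lay between 725 and 1349, a 1.86-fold range, from the highest to the lowest Psmb2, Psma1, Psma7, Psma6, Psmb7, Psmb4, Psmb6 and Psmb1. Neighbours in the order differed by less than the larger SD of the pair, except Psmb6, at 890 ± 116, and Psmb1. Psma2, with 32.8% of shared windows, fell just outside the 30% limit and had 380 ± 42.3, below these 8. The narrow range therefore depends on that limit.

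The lowest constitutive core subunits were those with the most shared windows. Psma5, an alpha subunit, had 42.5 ± 5.73 RPF reads per kb and Psmb5, the subunit with chymotrypsin-like activity, had 111 ± 24.5. Psma3 followed with 141 ± 14.3 and Psmb3 with 222 ± 46.9, while Psma4, with 60.0% of shared windows, had 878 ± 125. Over all 14 constitutive core subunits the highest level was 31.8-fold above the lowest. The SD over the 14 subunits of the log2 level was 1.58, against 0.30 over the 8 with under 30% of shared windows. Counted per kb of windows that are their own, Psma3 had 1311 and Psmb3 1172, close to Psma1 at 1316, whereas Psma5 had 403, Psmb5 469 and Psma2 565. Psma4 was highest on that scale at 2195, and the range over the 14 subunits was 5.45-fold. Across the 14 subunits the percentage of shared windows had a Spearman rho of −0.89 with the RPF level and of −0.62 with input per kb of exon. Over all 41 members the rho with the RPF level was −0.09. The genes share their libraries, and these values are descriptions.

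**Figure D1:**
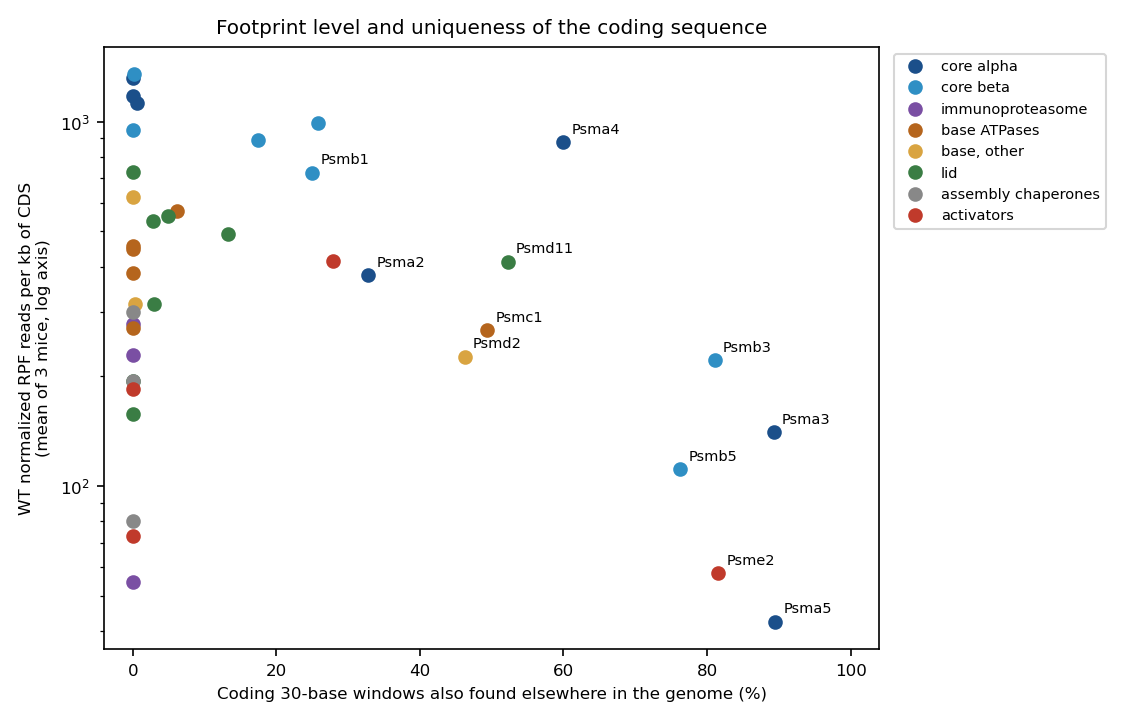
WT RPF level of each proteasome gene (normalized reads per kb of CDS, mean of 3 mice, log axis) against the percentage of its coding 30-base windows that occur elsewhere in the genome. Points are genes coloured by role. Psma5, Psme2, Psmb5, Psma3 and Psmb3, with 76.3% to 89.5% of shared windows, lie at 42.5 to 222.

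Over all 14 subunits, transcript levels spread less than RPF levels, and over the 8 with under 30% of shared windows they spread more. Normalized input reads per kb of exon had an SD of 0.89 on the log2 scale over the 14 subunits and of 0.78 over the 8, with an 8.62-fold and a 3.66-fold range. In each of the 6 RPF libraries, WT or KO, the SD over the 8 subunits was 0.25 to 0.41, below the 0.74 to 0.85 of the 6 input libraries. These scales use different lengths, since input is divided by all exons of the gene and RPF by its CDS. Input divided by CDS length gave an SD of 0.78 over the 14 subunits and of 0.49 over the 8, with a 2.92-fold range over the 8. On that scale the SD over the 8 subunits was 0.48 to 0.61 in the 6 input libraries.

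Base and lid subunits had lower median RPF levels than the core, at 385 reads per kb for the base and 453 for the lid against 884 for the 14 constitutive core subunits. Of the 6 base ATPases, Psmc6 was highest at 568 ± 27.5 RPF reads per kb and Psmc1 lowest at 268 ± 15.8, a 2.12-fold range, and 49.4% of the Psmc1 windows were shared. Psmd4, a base subunit that binds ubiquitin chains, had 623 ± 55.0, the highest of the base, and the scaffold Psmd2 had 227 ± 25.3, the lowest, with 46.2% of its windows shared and 422 per kb of its own windows. In the lid, Psmd6 was highest at 726 ± 70.6 and Psmd13 next at 550 ± 20.8. The lowest lid subunits were Psmd3 at 158 ± 6.81 and Psmd7, the partner of the deubiquitinase Psmd14, at 194 ± 41.2. Lid levels thus spanned a 4.59-fold range, wider than the base ATPases, and both low lid genes had 0% of shared windows.

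The ratio of the core median to the base and lid median was computed in each library, over subunits with under 30% of shared windows. It was 2.23 to 2.47 in the 3 WT RPF libraries, with 8 core and 14 base and lid subunits. In the 3 KO RPF libraries it was 2.54 to 2.83, above every WT library. In input the ratio was 1.11 to 1.22 in WT and 0.944 to 1.35 in KO, and the groups overlapped. Over all 14 core and 17 base and lid subunits, the RPF ratio was 1.99 to 2.27 in WT and 2.04 to 2.45 in KO, and the groups overlapped, so the separation rests on which subunits are counted. Core genes have shorter CDS than base and lid genes. Across all genes tested RPF reads per kb were lower in genes of longer CDS (Spearman rho −0.48), while over the 41 members the rho was −0.06. Genes are not independent replicates, and the part of length in the ratio was not tested.

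**Figure D2:**
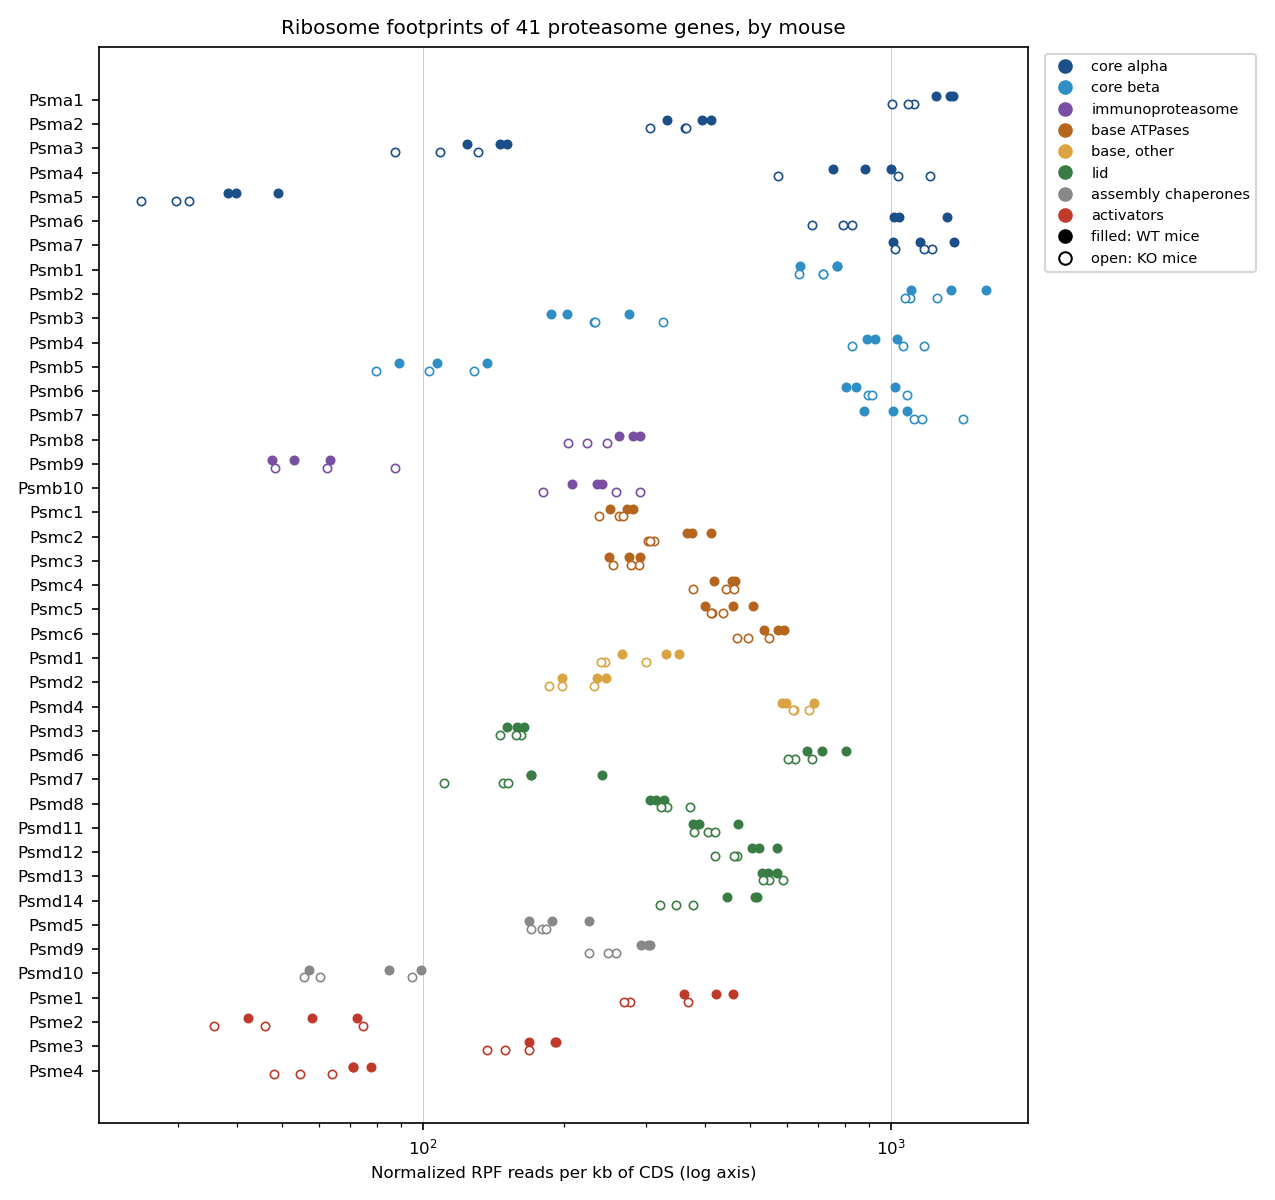
Normalized RPF reads per kb of CDS (log axis) of the 41 proteasome genes, ordered and coloured by role, with 1 point per mouse (filled WT, open KO). The 8 constitutive core subunits with under 30% of shared windows have WT means between 725 and 1349 and the 17 base and lid subunits between 158 and 726, while Psmb8, Psmb9 and Psmb10 lie at 278, 54.7 and 229 and Psma5 is lowest at 42.5.

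The remaining members lay below most of the particle. The immunoproteasome subunits Psmb8, Psmb9 and Psmb10 had 278 ± 14.2, 54.7 ± 8.02 and 229 ± 17.6 RPF reads per kb, with 0% of shared windows each. The chaperones of base assembly Psmd5, Psmd9 and Psmd10 had 195, 300 and 80.2 RPF reads per kb. Among activators, Psme1, which forms the PA28 cap together with Psme2, had 415 ± 49.3 and Psme2 had 57.6 ± 15.0, with 27.8% and 81.5% of shared windows. Psme3, the nuclear PA28 gamma, had 184 ± 13.7. Psme4, which encodes the large activator PA200, had 73.1 ± 3.76 over the longest CDS of the set at 5532 bases.

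Translation efficiency (TE), the ratio of RPF to input, was high for most members in WT. On the log2 scale, the median over the 41 members was 0.94 and that over all 8994 genes tested was 0.09, and 35 of 41 members lay above the latter. Psmb2 was highest, with log2 TE of 2.38, 2.74 and 2.91 in the 3 WT mice, followed by Psma1 with 2.33, 2.40 and 2.31. Psma7, an alpha subunit, had 2.04, 1.81 and 1.82. They lay at percentiles 99.7, 99.5 and 98.0 of all genes. The lowest were Psma5 with −1.12, −1.15 and −1.10, Psme4 with −0.78, −0.52 and −0.72, and Psme2 with −0.75, −0.26 and −0.84. Of these, Psma5 and Psme2 are among the genes with the most shared windows and Psme4 has none.

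Since RPF falls on the CDS and input on the whole transcript, TE was also computed per length, with RPF per kb of CDS over input per kb of the transcript. Psma2 was then highest at 3.38, ahead of Psmb2 at 3.18 and Psma1 at 2.95, while Psma7 was at 2.18. Psme4 at −0.44, Psma5 at −0.35 and Psme2 at −0.20 remained the lowest 3. On that scale the median was 1.45 over the 41 members and 0.96 over all genes, and 31 of 41 members lay above the latter. Psma7 and Psma2 thus entered the top 3 on 1 scale each, whereas Psmb2 and Psma1 were in it on both.

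Sequence at the start codon of the 3 highest and 3 lowest members in TE is shown to see whether they share a context. Each line runs from 9 bases before the start codon to 1 base after it, on the coding strand of the GENCODE transcript with the longest CDS, and capitals mark the start codon.
Psmb2: cccggcaccATGg
Psma1: gccggagctATGt
Psma7: tccgcagtgATGa
Psma5: gtcctcgccATGt
Psme4: cccgggctaATGg
Psme2: gggggaagcATGg
A context with A or G at the third base before the start codon and G right after it (ANNATGG or GNNATGG, coding strand only) was present in 1 of the 3 highest, Psmb2, and 1 of the 3 lowest, Psme2. It was present in 21 of 41 members (51.2%) and in 46.4% of 8741 genes tested with an annotated start.

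Whether loss of METTL5 changed transcript abundance of the proteasome was tested on the input counts. By the quasi-likelihood test of edgeR with adjustment over all 10057 genes, 0 of the 41 members and 0 of all genes (0.0%) reached an adjusted p under 0.05. At an unadjusted p under 0.05 there were also 0 members, against 3.46% of all genes (1.49% lower in KO, 1.97% higher). DESeq2 called 0 members too, as did edgeR with the replicate block, which called 0.0199% of all genes. The median log2 fold change, KO over WT, was −0.01 over the members and 0.00 over all genes, with 21 members lower and 20 higher, where 50.0% of all genes were lower. The smallest p belonged to Psma3, at 117, 146 and 150 normalized input reads in WT and 161, 158 and 208 in KO, with a log2 fold change of 0.37 (SE 0.18, edgeR adjusted p = 0.999). Every KO mouse lay above every WT mouse. Psma2 had 101, 107 and 110 in WT and 80.3, 78.4 and 81.6 in KO (log2 fold change −0.38, SE 0.19, edgeR adjusted p = 0.999), without overlap. Psmb10 differed less clearly, with 93.6, 64.3 and 57.7 in WT and 92.1, 83.7 and 110 in KO (0.44, SE 0.23, edgeR adjusted p = 0.999). Groups did not overlap in 5 members, 3 lower in KO (all genes: 5.6%) and 2 higher (3.65%).

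RPF of most members was lower in KO, but by amounts that did not pass the test. The median log2 fold change was −0.14 over the members and −0.03 over all genes, and 30 of 41 members had a lower value in KO, against 54.0% of all genes. None of the 41 passed an adjusted p of 0.05 in limma, where 44 of 8994 genes did (0.489%). At an unadjusted p under 0.05 there were 8 members lower and 1 higher, 9 of 41, against 13.4% of all genes (7.99% lower, 5.4% higher). All 3 KO mice lay below all 3 WT mice in 10 members, against 12.9% of all genes, and above them in 1, against 6.97%. With the replicate block of litter, 1 member passed, Psma6, where 2.62% of all genes did.

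The 3 members with the smallest RPF p belong to the core, the lid and the activators. Psma6, an alpha ring subunit (chr12:55384222-55418454), had 978, 770 and 752 normalized RPF reads in WT mice 1, 2 and 3 and 614, 587 and 504 in the KO mice. Its log2 fold change was −0.55 (SE 0.15), a 1.46-fold lower value, with a limma adjusted p of 0.117, or 0.0413 with the replicate block. Every KO mouse lay below every WT mouse, and input of Psma6 did not separate the groups, at 266, 243 and 270 against 218, 312 and 259. Psmd14, the deubiquitinase of the lid (chr2:61711694-61800376), had 417, 480 and 484 in WT and 353, 325 and 299 in KO, again without overlap (log2 fold change −0.50, SE 0.15, limma adjusted p = 0.136, or 0.0652 with the replicate block). Psme4 (chr11:30771726-30880361) had 392, 428 and 393 in WT and 266, 355 and 302 in KO (log2 fold change −0.40, SE 0.14, limma adjusted p = 0.185). Its input was lower as well, at 675, 613 and 645 against 559, 549 and 491, and groups did not overlap in either assay.

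**Figure D3:**
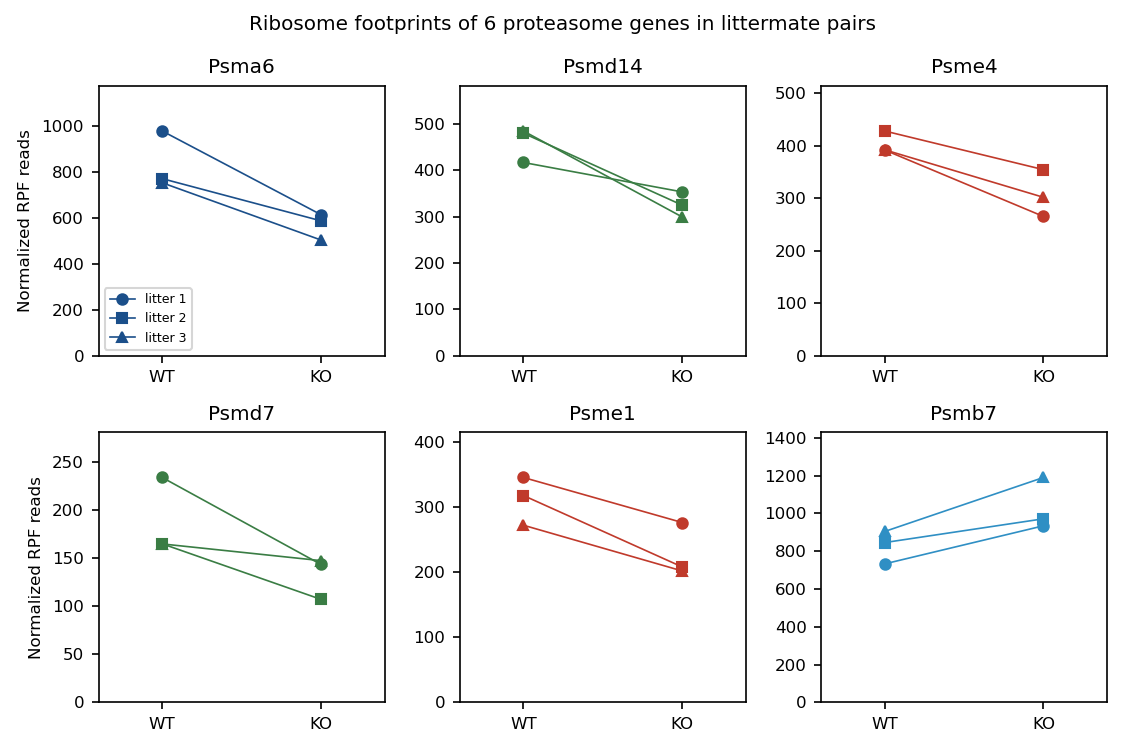
Normalized RPF reads of Psma6, Psmd14, Psme4, Psmd7, Psme1 and Psmb7 in each mouse, with lines joining littermates (marker shape gives the litter; axes start at 0). The KO mouse was lower in 3 of 3 litters for the first 5 genes and higher in 3 of 3 for Psmb7, and no gene passed an adjusted p of 0.05 in limma without the replicate block.

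Alpha and beta rings of the core had different medians. Of the 7 alpha subunits, 6 had a lower RPF value in KO, with a median log2 fold change of −0.30, where 54.0% of all genes were lower. Besides Psma6, Psma5 (−0.54, SE 0.23) and Psma1 (−0.30, SE 0.12) had an unadjusted p under 0.05, with limma adjusted p of 0.307 and 0.308. Of all genes, 7.99% had such a p and a lower value. Psma5 has 89.5% of shared windows and 19 to 69 RPF reads per library. With the GC trend removed, it was at −0.40 (limma adjusted p = 0.617). Psma1 had 989, 1062 and 1075 in WT and 887, 861 and 797 in KO, without overlap. Of the 7 constitutive beta subunits, 3 were lower and 4 higher, with a median of 0.09. Psmb7, the subunit with trypsin-like activity (chr2:38588036-38644087), was the single member with an unadjusted p under 0.05 and a higher value in KO, at 733, 846 and 904 in WT and 934, 971 and 1190 in KO (0.32, SE 0.15, limma adjusted p = 0.363). Its KO values lay above every WT value. The median GC content of the CDS was 44.9% in the alpha ring and 54.4% in the beta ring. With the GC trend of each library removed, the medians were −0.10 in the alpha ring, with 5 of 7 lower, and −0.0012 in the beta ring, with 4 of 7 lower. The difference between the rings was not tested.

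In the regulatory particle, 13 of the 17 base and lid subunits had a lower RPF value in KO, with a median of −0.11, against 54.0% of all genes. With the GC trend removed, the median was −0.049 in the base ATPases, with 4 of 6 lower. It was −0.078 in the other base subunits, with 3 of 3 lower, and −0.056 in the lid, with 5 of 8 lower. Psmc2, an ATPase, had 591, 523 and 536 in WT and 445, 433 and 436 in KO (−0.33, SE 0.15, limma adjusted p = 0.343), without overlap. Psmd7 had 234, 165 and 165 in WT and 143, 107 and 147 in KO (−0.49, SE 0.17, limma adjusted p = 0.215), also without overlap. WT mouse 1 stood above the other WT mice in this gene. All 4 activators had lower values in KO, with a median of −0.34, or of −0.15 with the GC trend removed. Psme1 had 345, 317 and 272 in WT and 276, 208 and 202 in KO (−0.45, SE 0.16, limma adjusted p = 0.221), where KO mouse 1 overlapped WT mouse 3. Log2 fold changes of Psme3 and Psme2 were −0.28 (SE 0.18) and −0.17 (SE 0.38), with limma adjusted p of 0.515 and 0.885. Psme2 rests on few reads of its own and its groups overlapped.

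**Figure D4:**
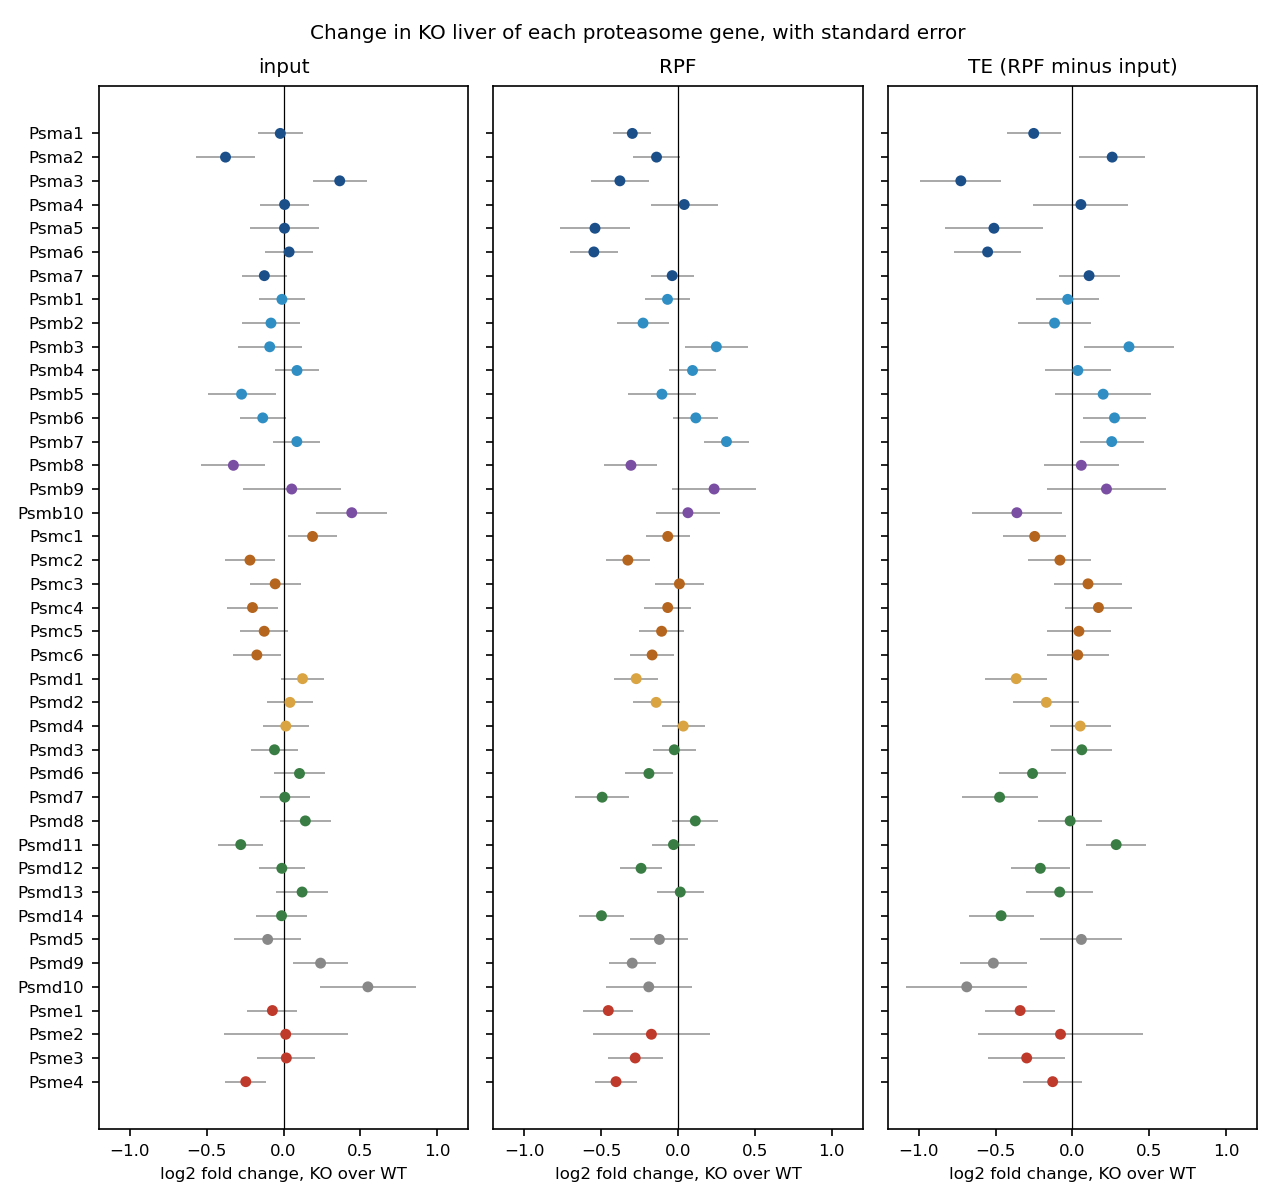
Log2 fold change, KO over WT, of each proteasome gene in input, RPF and TE, with its standard error (edgeR for input, limma for RPF and TE). Input values centre on −0.01, RPF values have a median of −0.14 with 30 of 41 below 0, and no gene passed an adjusted p of 0.05.

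RPF log2 fold changes of the members went with the GC content of their CDS, as they did over all genes. The Pearson r between RPF log2 fold change and CDS GC content was 0.51 over the 41 members and 0.43 over all genes, a description across genes that share the same libraries. Of the 14 members with the lowest GC content (41.8% to 48.1%), 13 had a lower value in KO, with a median of −0.27, and 5 had an unadjusted p under 0.05. Of the 14 with the highest (51.7% to 59.7%), 6 had a lower value, with a median of 0.02, and 0 had an unadjusted p under 0.05. All genes tested were also grouped in bins by GC content. In the bins that start at 42%, 44% and 46%, their median was −0.26, −0.21 and −0.16. The upper quartiles there were −0.08, −0.03 and 0.01, so most of these genes were lower in KO too. In the bins that start at 52%, 54%, 56% and 58%, the median was −0.01, 0.03, 0.10 and 0.17. Counts by p were not computed for all genes of these GC ranges. Psma6 (44.4%), Psmd14 (43.0%) and Psme4 (42.6%) lie in the low group. After the GC trend was taken out of each library, the median of the members was −0.08, the log2 fold change of Psma6 was −0.34, that of Psmd14 −0.26 and that of Psme4 −0.16. The limma adjusted p was then 0.477, 0.634 and 0.799, and Psma6 did not pass with the replicate block either (0.308). Psme1 (−0.43), Psmd7 (−0.43) and Psmb7 (0.42) were at a similar or larger size, with limma adjusted p of 0.372, 0.421 and 0.380.

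**Figure D5:**
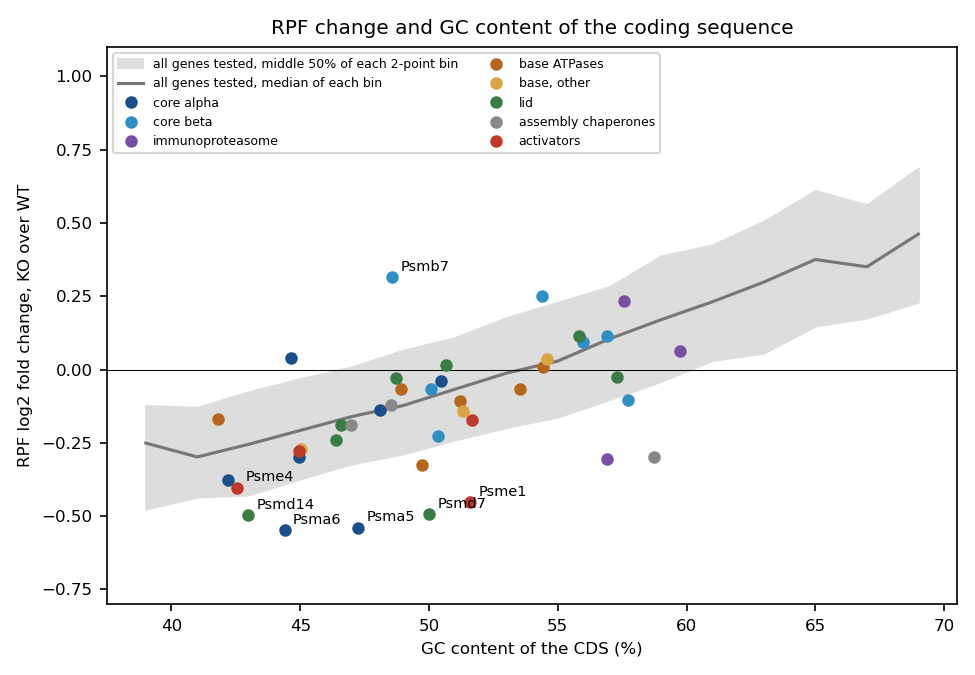
RPF log2 fold change, KO over WT, against GC content of the CDS. The grey line and band are the median and the middle 50% of all genes tested, in bins of 2 percentage points with at least 20 genes, and points are proteasome genes coloured by role; members of low GC content lie lowest, with Psma6 at −0.55, and Psmb7 lies above the band at 0.32.

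TE of the proteasome showed no change that passed the test. None of the 41 members and none of the 8994 genes (0.0%) passed an adjusted p of 0.05 in limma, while 4 members, all lower in KO, and 4.7% of all genes (2.61% lower, 2.09% higher) had an unadjusted p under 0.05. The edgeR fit to whole reads also called 0 members, as did limma with the replicate block, where 0.0111% of all genes passed. The median log2 fold change of TE was −0.08 over the members and −0.01 over all genes, with 23 of 41 members and 51.3% of all genes lower in KO. Psma3 had log2 TE of −0.06, −0.33 and −0.65 in the WT mice and −0.95, −0.65 and −1.64 in the KO mice, with a difference of −0.73 (SE 0.26, limma adjusted p = 0.998). KO values lay below WT values by a narrow margin, and Psma3 has 89.3% of shared windows. Differences in log2 TE were −0.55 (SE 0.22) for Psma6 and −0.51 (SE 0.22) for Psmd9, a chaperone of base assembly, both with a limma adjusted p of 0.998. Psmd9 had 0.90, 0.75 and 1.02 in WT and 0.41, 0.51 and 0.19 in KO, without overlap. The groups did not overlap in 10 members, 9 lower in KO (all genes: 7.34%) and 1 higher (6.08%). Psma3 and Psma6 have a CDS of low GC content (42.2% and 44.4%). With the GC trend of each library removed, their TE differences were −0.53 and −0.39. The part of GC content in the counts of TE was not tested.

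The immunoproteasome was measured as the share of Psmb8, Psmb9 and Psmb10 in the sum of these and Psmb5, Psmb6 and Psmb7, per kb of CDS. In RPF the share was 22.1%, 22.3% and 21.5% in the WT mice and 21.4%, 16.6% and 18.5% in the KO mice. Every KO value lay below every WT value, although KO mouse 1 and WT mouse 3 were close and the separation rests on the pair of Psmb5 and Psmb8. In input the share was 26.9%, 27.1% and 22.1% in WT and 27.1%, 29.9% and 23.1% in KO, and the groups overlapped. The 3 genes did not share a direction in RPF. Psmb8 had 234, 241 and 218 in WT and 186, 170 and 206 in KO (log2 fold change −0.31, SE 0.17, limma adjusted p = 0.461), without overlap. Log2 fold changes were 0.23 (SE 0.27) for Psmb9 and 0.06 (SE 0.21) for Psmb10, and their groups overlapped. Of the constitutive partners, Psmb5 had a log2 fold change of −0.10 (SE 0.22) and Psmb6, the caspase-like subunit, one of 0.12 (SE 0.15), with limma adjusted p of 0.880 and 0.775.

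The share depends on which pair of subunits is taken, in WT RPF as in input. Psmb9 made up 5.89% ± 1.43 of Psmb6 and Psmb9 in WT RPF, and Psmb10 18.8% ± 2.40 of Psmb7 and Psmb10 (SD, n = 3). Psmb8 made up 71.7% ± 3.46 of Psmb5 and Psmb8, a pair in which Psmb5 has 76.3% of shared windows and Psmb8 has 0%. Without that pair, the share in RPF was 13.2%, 13.01% and 13.05% in the WT mice and 14.7%, 9.95% and 12.3% in the KO mice. The groups then overlapped, with KO mouse 1 above every WT mouse. Immunoproteasome genes are strongly expressed in leukocytes, whose 12 markers included 10 in the table. Their summed level was 2553 to 3392 normalized RPF reads in WT and 2918 to 4421 in KO, and 1254 to 1776 against 1494 to 1920 in input. The MHC class II genes Cd74 (813 to 1286, mean of WT to mean of KO) and H2-Ab1 (164 to 302) were the leukocyte markers with an unadjusted p under 0.05 in RPF, both higher in KO. Of the 8 markers tested, 5 had a lower value, with a median of −0.07. Their part in the share was not tested.

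Other genes of the pathway were taken from lists and described by counts. None of the genes of 5 lists passed an adjusted p of 0.05 in input (edgeR), RPF or TE (limma). Core assembly factors and the inhibitor Psmf1 had 4 of 6 genes lower in RPF, with a median of −0.09. Psmf1 itself was at −0.28 (SE 0.20, limma adjusted p = 0.579). Subunits and partners with other names, such as the ubiquitin receptor Adrm1, had 7 of 9 genes lower, with a median of −0.20 in RPF, of which Txnl1 was the lowest at −0.48 (SE 0.14, limma adjusted p = 0.121). Genes of the Nrf1 response, which raises transcription of proteasome genes when the proteasome fails, had 3 of 6 genes lower with a median of 0.11. Nfe2l1, which encodes Nrf1, was at 0.04 in input (SE 0.13, edgeR adjusted p = 0.999) and at 0.31 in RPF (SE 0.15, limma adjusted p = 0.370). Ubiquitin and delivery genes had 10 of 14 lower with a median of −0.10, and genes of MHC class I antigen processing 7 of 12 with a median of −0.06. Over all genes tested, 54.0% were lower in RPF, with a median of −0.03. The share of all genes that passed was 0.489% in RPF and 0.0% in input and in TE.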

How the data were processed

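Libraries of input RNA and RPF from 3 WT and 3 KO littermates, 12 in all, were analysed. The deposited input counts are read pairs per gene. Before deposit the authors used BBDuk for trimming, STAR 2.7.3a for alignment to mm10 and featureCounts for counting by exon and strand (1.6.0 per the labels, 2.0.3 per the file headers), with uniquely mapped reads kept. RPF reads were freed of rRNA and mapped with RiboToolkit, with 1 location allowed and duplicates kept. The signal in the 12 columns of the authors' table is reads divided by 1 factor per library, with no gene length. In every column 100% of values were whole multiples of 1 read within 0.05 of a read, and the sources used here do not state how factors and genes were chosen. The authors' deposited log2 fold changes and p-values of TE were not used. 0 columns of per-sample values lacked a sample.

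Input counts were tested with edgeR 4.0.16 (TMM, filterByExpr, robust quasi-likelihood). For RPF and TE, limma 3.58.1 (trend, robust) was run on log2(value + 1), a scale that understates changes of low genes, after a filter that required a mean of 10 or more in both assays. The model held the means of the 4 groups, so the TE test did not pair the input and RPF libraries of a mouse. Tests were two-sided in R 4.3.3, with Benjamini-Hochberg adjustment over all genes tested, and were tested on simulated data. The edgeR test on the recovered whole reads called 62 genes in RPF and 0 in TE. The CDS is the longest of each gene in GENCODE M21, and windows of 30 bases inside 1 exon were matched to 21 chromosomes of GRCm38 (mm10). Counting error is set by reads, which are not molecules.

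WT and KO mice with the same number in the labels were taken as littermates. Their deviations from the group means correlated at 0.08 to 0.13 (input) and at 0.14 to 0.24 (RPF). For WT and KO mice of different numbers the correlations were −0.12 to 0.02 (input) and −0.24 to 0.08 (RPF). Since no litter term is stated in the study's methods, the replicate block of litter was the alternative. Further alternatives were other low-value filters, pseudocounts, normalizations and lengths, removal of the GC trend, a block of mouse for TE, and leaving out each mouse. Alternatives by shared windows, by transcript length, without the pair of Psmb5 and Psmb8, by edgeR with the replicate block, and GC removal by role were chosen after seeing the data. Named genes were the catalytic and immunoproteasome subunits, the activators, the 3 smallest p in each comparison, the 2 highest and lowest of core, base and lid in RPF per kb, and the 3 highest and lowest in TE, and other members were named after their values were seen. Members, lists, tests and the 30% limit on shared windows were chosen with earlier results of these data known.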

Additional observations from a re-analysis of the deposited data

How the results depend on the processing

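Over 57 results and 801 recomputed values, 0 members were called in input or TE under any alternative. With the replicate block 1 member was called in RPF, Psma6, by limma (adjusted p = 0.0413) and by edgeR on whole reads (log2 fold change −0.51, adjusted p = 0.0357), and the block changed no other call. With the GC trend removed, with or without the replicate block, the RPF median of the members was −0.078. The SD of the log2 RPF level over the 14 core subunits (1.58) was 1.48 with catalytic subunits summed with their immunoproteasome counterparts, 0.30 over subunits with under 30% of shared windows and 0.66 per kb of own windows. That of input (0.89) was 0.78 with CDS length, with RefSeq coding length and under 30% of shared windows, 0.98 summed, 1.07 with transcript length, and 0.49 with CDS length over subunits with under 30% of shared windows. The immunoproteasome share in WT RPF was 22.7% without division by length. Without the pair of Psmb5 and Psmb8 it was 13.1% in WT and 12.3% in KO RPF, and 15.99% and 19.6% in input.

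Directions turned for 15 single-gene results, in 35 of the recomputed values, and 0 of these values belonged to a result with an unadjusted p under 0.05. Input of Psme2 was −0.0065 with DESeq2, −0.027 with the replicate block and −0.10 with limma on the normalized table. With the GC trend removed, with or without the replicate block, RPF was −0.0012 for Psmb6 and −0.14 for Psmb10, and TE was −0.048 for Psmb8 and 0.061 for Psme4. With 1 mouse left out, input ran from −0.34 to 0.38 for Psme2, −0.14 to 0.13 for Psme3, −0.10 to 0.16 for Psma6, −0.11 to 0.11 for Psmd14, −0.19 to 0.23 for Psmb9, −0.032 to 0.15 for Psmb7 and −0.15 to 0.029 for Psme1. RPF ran from −0.27 to 0.0705 for Psmb5, −0.46 to 0.057 for Psme2 and −0.077 to 0.26 for Psmb10. TE ran from −0.15 to 0.28 for Psmb8, −0.48 to 0.32 for Psme2, −0.15 to 0.64 for Psmb9 and −0.21 to 0.0074 for Psme4. The medians of the members ran from −0.06 to 0.04 in input, −0.15 to −0.09 in RPF and −0.15 to −0.04 in TE. The cause of these shifts was not tested. Depth limits Psme2, Psma5, Psmd10 and Psmb9 most, which had the fewest reads of the members.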
